A study of Mus musculus with 8 samples.

Results

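The Krüppel-like factor genes of the mouse genome encode zinc-finger transcription factors, and 10 of them (Klf2, Klf3, Klf4, Klf5, Klf6, Klf7, Klf9, Klf10, Klf13 and Klf15) are described here by the acetylation of histone H3 at lysine 27 (H3K27ac) around them in collecting duct cells. They were chosen by name from 21887 protein-coding genes, with earlier results of these data known. The RefSeq span of each gene in mm10, with 50 kb added on each side, is called its window, and every called peak that overlapped a window was taken. The 10 windows held 75 of 45705 union regions, which are the merged peaks of all 4 peak lists.

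The cells were mpkCCD clone 11, a mouse cell line from the cortical collecting duct of the kidney, grown on permeable supports. Treated cells received 0.1 nM dDAVP, an analogue of vasopressin that is selective for the V2 receptor, for 24 h (n = 2 experiments). Control cells received the vehicle for 24 h (n = 2 experiments). Cells of both groups had first been kept for 24 h without serum or hormones, after growth in a medium that held dexamethasone, triiodothyronine, insulin and epidermal growth factor. Each group and experiment gave 1 immunoprecipitated and 1 input library, so the design had 4 peak lists and 4 input libraries. All libraries came from 1 clone, and the labels say no more of how far the experiments were separate than their number, so any spread between them may be technical.

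Krüppel-like factors bind GC-rich boxes and CACCC elements through zinc fingers at their C-terminal end, and differ in the N-terminal parts that recruit coactivators or corepressors. Klf3 recruits the corepressor CtBP. Klf2, Klf4, Klf5, Klf6 and Klf7 are mostly known as activators that can bind acetyltransferases. Klf9, Klf10 and Klf13 recruit the Sin3 corepressor. Several members are immediate early or hormone-responsive genes, Klf9 and Klf15 being known targets of the glucocorticoid receptor and Klf10 of TGF-beta. H3K27ac marks active promoters and enhancers, and a called peak says that the mark exceeded the input there, not how much RNA a gene makes.

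The promoters of Klf3, Klf6, Klf7 and Klf9 are shown because the starts of these genes were called in all 4 lists while their motif content differed. Each sequence runs 5′ to 3′ on the strand of the gene, with 250 bases before and 50 bases after the start site, from RefSeq (GRCm38.p6). Capitals mark matches, on either strand, to the GC box (GGGCGG), the core of the Klf box (CACCC) or the short core of the cAMP response element (TGACG).
Klf3 (chr5:64803271-64803570, plus strand): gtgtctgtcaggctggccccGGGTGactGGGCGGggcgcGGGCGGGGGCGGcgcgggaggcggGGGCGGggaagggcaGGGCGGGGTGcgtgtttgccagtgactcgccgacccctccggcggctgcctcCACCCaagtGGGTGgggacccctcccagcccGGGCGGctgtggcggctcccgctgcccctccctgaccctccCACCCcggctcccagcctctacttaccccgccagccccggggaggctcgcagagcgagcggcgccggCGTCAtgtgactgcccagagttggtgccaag
Klf6 (chr13:5861239-5861538, plus strand): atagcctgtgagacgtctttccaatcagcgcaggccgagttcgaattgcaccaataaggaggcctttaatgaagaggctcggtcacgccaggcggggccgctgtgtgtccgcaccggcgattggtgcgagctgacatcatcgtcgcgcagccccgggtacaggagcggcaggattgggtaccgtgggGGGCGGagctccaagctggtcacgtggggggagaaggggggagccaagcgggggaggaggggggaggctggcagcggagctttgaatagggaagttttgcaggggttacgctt
Klf7 (chr1:64121340-64121639, minus strand): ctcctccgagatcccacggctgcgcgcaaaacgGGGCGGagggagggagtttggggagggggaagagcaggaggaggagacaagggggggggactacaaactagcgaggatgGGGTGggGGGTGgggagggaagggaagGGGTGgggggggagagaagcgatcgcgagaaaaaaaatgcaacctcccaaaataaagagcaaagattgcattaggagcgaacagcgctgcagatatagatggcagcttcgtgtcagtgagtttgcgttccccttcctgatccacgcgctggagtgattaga
Klf9 (chr19:23140976-23141275, plus strand): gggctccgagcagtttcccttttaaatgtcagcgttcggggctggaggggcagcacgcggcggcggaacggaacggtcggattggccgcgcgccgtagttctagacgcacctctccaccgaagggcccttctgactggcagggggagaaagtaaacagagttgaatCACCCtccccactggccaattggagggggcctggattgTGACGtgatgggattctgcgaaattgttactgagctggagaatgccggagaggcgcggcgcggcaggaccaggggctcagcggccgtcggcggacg

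Klf3 had the densest promoter of these 4, with 6 GC boxes, 5 Klf box cores and 1 short cAMP core. In it, 1 GC box shares a base with the Klf box core that follows, another pair of GC boxes adjoin, and their capitals run together. Klf7 had 1 GC box and 3 Klf box cores, Klf6 had 1 GC box, and Klf9 had no GC box, 1 Klf box core and 1 short cAMP core that began at position -46 (the start site being 0). Promoter sequence was matched for 8 of the 10 genes, all but Klf5 and Klf10. The GC box was found in 7 of these 8 promoters, against 35.6% of all 32817 promoters of the same length, and the Klf box core in 6 of 8, against 57.5%. The short cAMP core was found in 6 of 8 (20.8% of all promoters). The full cAMP response element TGACGTCA, which contains the short core, was found in 0 of 8 (1.79%), and so was the palindromic glucocorticoid response element (0.00914%). The 8 promoters were also richer in G and C, with between 58.3% and 76.7%, against a median of 52.7% over all promoters. The part of base composition in the counts was not tested.

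The lists differed in length before any gene is considered. The dDAVP list held 37235 peaks and the vehicle list 39745 peaks in experiment 1, and the dDAVP list 20124 peaks and the vehicle list 29597 peaks in experiment 2. Bases under peaks in the dDAVP list were 0.951 times those in the vehicle list in experiment 1 and 0.590 times in experiment 2. Between 27923780 and 32705755 immunoprecipitated tags per library had been kept. The shortest list, dDAVP in experiment 2, came from 31676748 such tags and from the input with the fewest, 30753752, the other inputs holding between 35142984 and 38291361. The part of depth in the length of the lists was not tested. Covered bases, the number of bases of a window that lie under called peaks, is the measure used below, and it moves with the length of a list. Of 6 principal cell markers (Aqp2, Aqp3, Avpr2, Scnn1a, Hsd11b2, Gata3), all had a peak at the start in all 4 lists, and of 6 endothelial, 6 leukocyte, 6 fibroblast and 6 proximal tubule markers 0 had. The starts of Cd68 and Dcn were called in 3 lists and those of Spi1 and Col1a1 in 2.

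Of the 10 genes, 9 had covered bases in all 4 lists, and Klf4 did not. Over all protein-coding genes, 70.5% had. Klf6 had the largest share of its window covered, 25.5% ± 5.45 (SD, n = 4 lists), followed by Klf3 with 17.3% ± 3.88, Klf13 with 16.4% ± 7.95, Klf15 with 10.9% ± 7.25 and Klf5 with 10.4% ± 5.17. Klf9 followed with 10.3% ± 3.32, Klf10 with 8.91% ± 4.91, Klf7 with 7.10% ± 3.85, Klf2 with 5.52% ± 4.06 and Klf4 with 0.0638% ± 0.128. These SDs span both treatments and both experiments. In this order the steps between Klf6 and Klf3 and between Klf2 and Klf4 exceeded the SDs of both genes, and no other step between neighbours did. The median of the 10 genes was 10.3%, against 3.5% over all protein-coding genes.

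**Figure D1:**
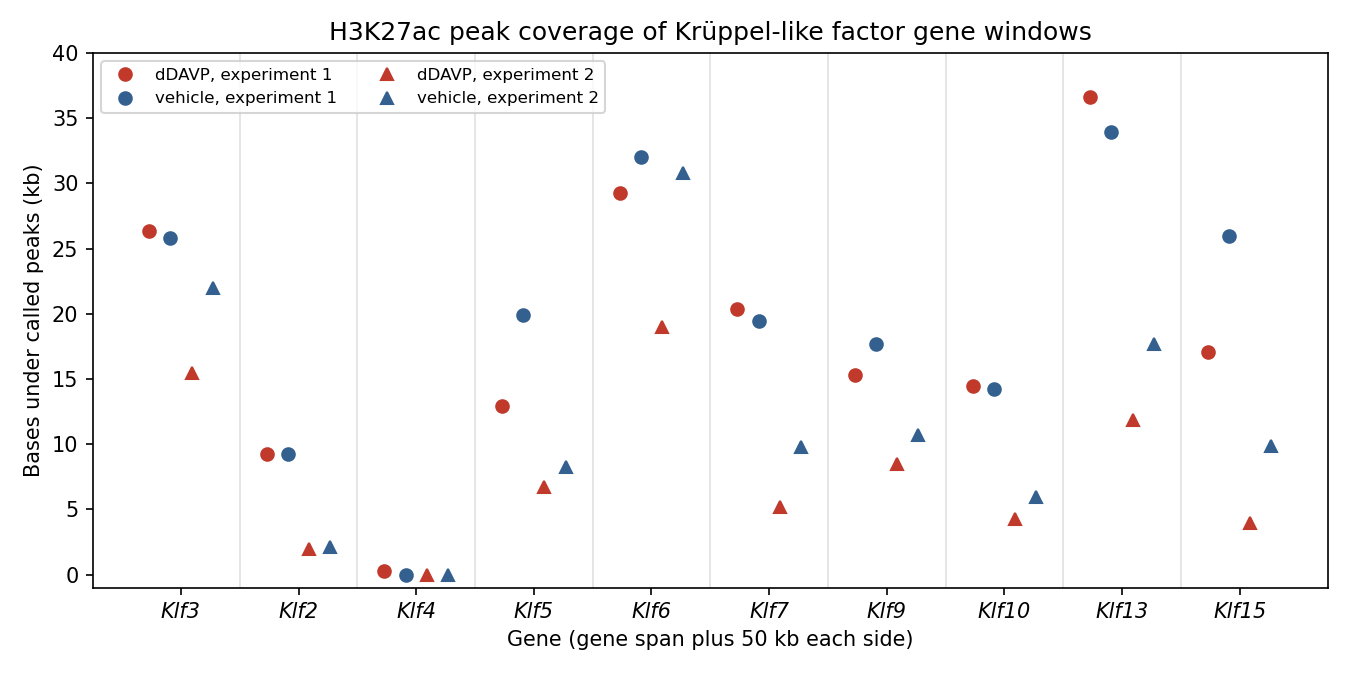
Bases under called H3K27ac peaks (kb, vertical axis) in the window of each gene (horizontal axis), 1 point per peak list, with dDAVP in red left of vehicle in blue, experiment 1 as circles and experiment 2 as triangles. Klf4 lies at or near 0 in every list, and in the other genes the lists of experiment 2 mostly lie below those of experiment 1.

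**Figure D2:**
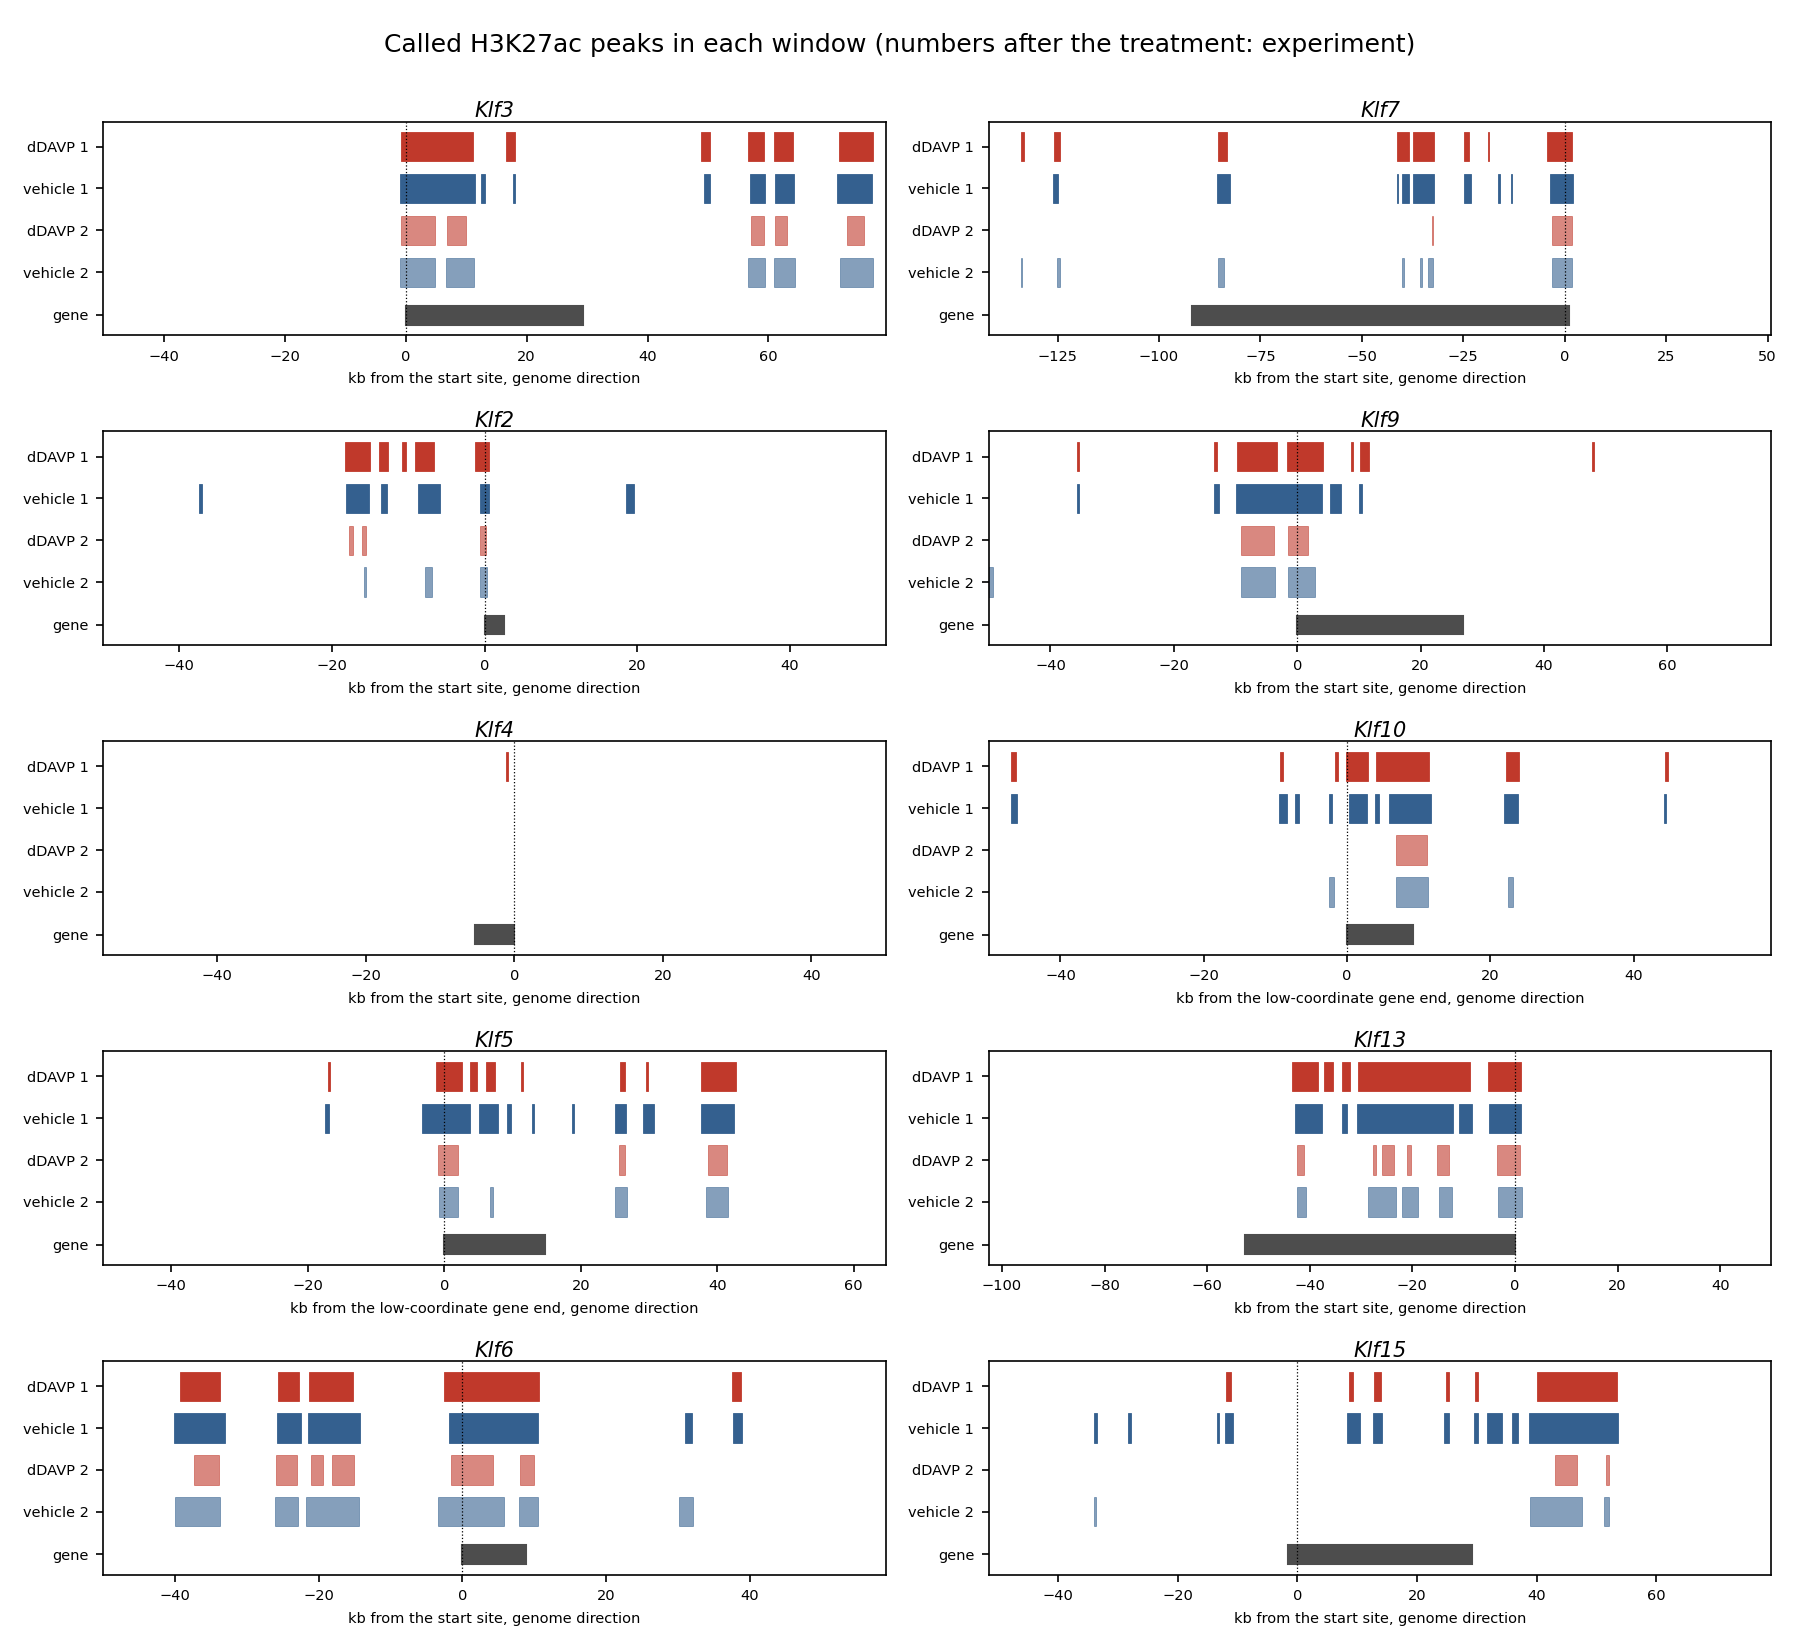
Called peaks (coloured bars, 1 row per list, dDAVP above vehicle within each experiment) and the gene (grey bar) in each of the 10 windows, by distance in kb from the start site, or from the low-coordinate gene end for Klf5 and Klf10. Bars of the start recur in all 4 lists for 8 genes, and Klf15 has its widest bars beyond the gene instead.

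Klf3, the repressor of the family that binds CtBP, lies on chromosome 5 (64803521 to 64832901). Its window had 26374 bp covered with dDAVP and 25782 bp with vehicle in experiment 1, and 15452 bp with dDAVP and 21976 bp with vehicle in experiment 2. The dDAVP value was thus slightly higher in experiment 1 and lower in experiment 2. A region of 12467 bp lay over the start and the first part of the gene and was called in all 4 lists. The protein-coding gene Gm38457 overlaps this region too, so it cannot be assigned to Klf3 by position alone. At the start, the peaks had a fold over input of 8.06 (dDAVP) and 7.61 (vehicle) in experiment 1, and 8.93 (dDAVP) and 12.4 (vehicle) in experiment 2. Folds given here were computed per peak by the authors, and lists are not compared by them. Downstream of the gene, 3 further regions were called in all 4 lists, at 27.3, 31.6 and 41.9 kb. The nearest of them (64860161 to 64862971) ranked high in the lists of experiment 1, with a fold of 8.60 with dDAVP (percentile 95.9 of its list) and 9.80 with vehicle (percentile 97.8). In experiment 2 it had a fold of 5.20 with dDAVP (percentile 75.0) and 8.38 with vehicle (percentile 92.5).

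Klf2, known for quiescence of endothelial cells and T cells, lies on chromosome 8 (72319062 to 72321654). Covered bases were 9257 bp with dDAVP and 9274 bp with vehicle in experiment 1, and 1976 bp with dDAVP and 2134 bp with vehicle in experiment 2. Both experiments gave nearly equal values for the treatments, and they differed far more between the experiments. Its start was called in all 4 lists by narrow peaks of 1904 and 1207 bp (dDAVP and vehicle, experiment 1) and 784 and 873 bp (dDAVP and vehicle, experiment 2). The widest region of the window was not the start but a stretch of 3267 bp lying 15.04 kb upstream (72300761 to 72304027). It had 3267 bp covered with dDAVP and 3071 bp with vehicle in experiment 1, and 1192 bp with dDAVP and 289 bp with vehicle in experiment 2. The gene Eps15l1 also lies in part within this window, so a region there cannot be assigned to Klf2 by position alone.

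Klf4, a factor of epithelial differentiation and of reprogramming to pluripotency, had almost no called acetylation around it. Its window on chromosome 4 held a single peak of 269 bp, in the dDAVP list of experiment 1, and 0 bp in the other 3 lists. That peak (55531350 to 55531618) lay inside the gene within 1 kb of the start, with a fold of 3.05 at the median of its list (percentile 50.0). With 0 bp in the other dDAVP list as well, no ratio is given for Klf4.

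Klf5, a factor of proliferating epithelia that is known in the collecting duct, lies on chromosome 14 (99298691 to 99313412). Its window had 12921 bp covered with dDAVP and 19921 bp with vehicle in experiment 1, and 6735 bp with dDAVP and 8219 bp with vehicle in experiment 2. The dDAVP value was lower in both experiments. A region of 6959 bp at the low-coordinate end of the gene was called in all 4 lists, with a fold of 9.44 (dDAVP) and 8.75 (vehicle) in experiment 1, and 6.26 (dDAVP) and 8.95 (vehicle) in experiment 2. The strand and start site of Klf5 were not in the tables used, so both ends of the gene were searched. Beyond the high-coordinate end, regions at 10.3 and 22.9 kb were also called in all 4 lists. The gene Pibf1 also reaches into this window.

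Klf6, a rapidly induced gene and tumour suppressor, had the most heavily covered window of the 10 and the 95.7 percentile among all protein-coding genes. It lies on chromosome 13 (5861489 to 5870393). Covered bases were 29256 bp with dDAVP and 32028 bp with vehicle in experiment 1, and 19022 bp with dDAVP and 30764 bp with vehicle in experiment 2. Both dDAVP values lay below both vehicle values, so the groups did not overlap. The same held for 5.47% of the protein-coding genes with covered bases in all 4 lists. A region of 14099 bp covered the start and the whole gene, and 3 intergenic regions of 7458, 3504 and 7046 bp lay 14.3, 22.5 and 33.0 kb upstream. All 4 of these regions were called in every list, and no end of another protein-coding gene lay in the window. At the start, the fold was 8.50 (dDAVP) and 9.56 (vehicle) in experiment 1, and 10.0 (dDAVP) and 14.1 (vehicle) in experiment 2, each above the 95th percentile of its list. The protein-coding genes with the most similar shares of the window covered over the 4 lists were Cldn13, Ddx47 and Hfe, with mean absolute log2 differences of 0.0511, 0.0748 and 0.0781.

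Klf7, known for axon outgrowth in neurons, spans a long stretch of chromosome 1 (64029448 to 64122345). Its window had 20361 bp covered with dDAVP and 19448 bp with vehicle in experiment 1, and 5201 bp with dDAVP and 9769 bp with vehicle in experiment 2. The treatments were close in experiment 1 and apart in experiment 2. Its start region of 6383 bp kept 6286 bp with dDAVP and 5616 bp with vehicle in experiment 1, and 4934 bp with dDAVP and 5037 bp with vehicle in experiment 2. The remainder of the window, mostly peaks in the gene body, had 14075 bp with dDAVP and 13832 bp with vehicle in experiment 1, but 267 bp with dDAVP and 4732 bp with vehicle in experiment 2. In the dDAVP list of experiment 2 the start thus held 94.9% of the covered bases, against 51.6% in the vehicle list.

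Klf9, a Sin3-binding factor induced by thyroid hormone and glucocorticoids, lies on chromosome 19 (23141226 to 23168129). Covered bases were 15274 bp with dDAVP and 17703 bp with vehicle in experiment 1, and 8449 bp with dDAVP and 10721 bp with vehicle in experiment 2, lower with dDAVP in both. Most of them lay in 1 region of 14207 bp (23131268 to 23145474) over the start and the 10 kb before it. The share of covered bases in this region was 81.3% (dDAVP) and 79.1% (vehicle) in experiment 1, and 100.0% (dDAVP) and 93.8% (vehicle) in experiment 2. Its highest fold in the dDAVP list of experiment 1 was 13.7, at percentile 99.9, which is the highest percentile of any family region in any list. That peak lay upstream of the start. The region of 14207 bp as a whole overlapped the noncoding gene 2410080I02Rik, and the gene Smc5 also reaches into the window.

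Klf10, the TGF-beta-inducible member of the Sin3-binding group, lies on chromosome 15 (38291464 to 38300711). Its window had 14444 bp covered with dDAVP and 14229 bp with vehicle in experiment 1, and 4280 bp with dDAVP and 5975 bp with vehicle in experiment 2. In the dDAVP list of experiment 2, all 4280 bp lay in the region of 7930 bp at the high-coordinate end (38295311 to 38303240), which was called in all 4 lists. The low-coordinate end carried a region of 3064 bp that was called in both lists of experiment 1 and in neither of experiment 2. As for Klf5, both gene ends were searched.

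Klf13, known for control of the chemokine gene Ccl5 in T cells, lies on chromosome 7 (63886351 to 63938915). Covered bases were 36626 bp with dDAVP and 33972 bp with vehicle in experiment 1, and 11845 bp with dDAVP and 17719 bp with vehicle in experiment 2. The widest region of the whole family lay in its gene body, 22454 bp (63908052 to 63930505). That region had 21877 bp covered with dDAVP and 21372 bp with vehicle in experiment 1, and 5977 bp with dDAVP and 11172 bp with vehicle in experiment 2. In both lists of experiment 2 it was broken into several peaks, 4 with dDAVP and 3 with vehicle. The start region of 6518 bp was called in all 4 lists. A second protein-coding gene, E030018B13Rik, lies within this window and overlaps the region of 22454 bp.

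Klf15, a glucocorticoid-induced regulator of metabolism that was described as a kidney-enriched factor, had acetylation without a called start. It lies on chromosome 6 (90461043 to 90491803). Its window had 17096 bp covered with dDAVP and 25942 bp with vehicle in experiment 1, and 3982 bp with dDAVP and 9834 bp with vehicle in experiment 2. These were the widest gaps between the treatments in the family as a mean over both experiments. Most of the bases lay in an intergenic region of 14855 bp (90501245 to 90516099), 9.44 kb downstream of the gene and 34.7 kb from Aldh1l1, the nearest other protein-coding gene. It had 13392 bp covered with dDAVP and 14855 bp with vehicle in experiment 1, and 3982 bp with dDAVP and 9598 bp with vehicle in experiment 2. In the dDAVP list of experiment 2, it was the only region called in the window. The 3 gene body regions were called in both lists of experiment 1 and in neither list of experiment 2.

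A peak within 1 kb of the start was called in all 4 lists for 8 of the 10 genes, against 45.9% of all protein-coding genes. The exceptions were Klf15, whose start was called in 0 lists (as for 45.2% of all genes), and Klf4, called in 1. With a fold of at least 5 required, Klf2 and Klf13 also dropped out and 6 genes remained, and the same 6 remained with lists limited to equal covered bases.

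With dDAVP against vehicle, 5 of the 9 genes with covered bases in all 4 lists (Klf2, Klf5, Klf6, Klf9 and Klf15) had fewer covered bases in both experiments, close to the 54.5% of all protein-coding genes that did. None of the 9 (0) had more in both, against 1.56% of all genes. In experiment 1 alone, 5 of 9 had fewer covered bases with dDAVP (55.2% of all genes), and in experiment 2 alone 9 of 9 had (97.7% of all genes). Per gene, the exact permutation test within experiments cannot go below p = 0.5 (two-sided), so no single gene could pass a threshold, and those 5 genes all had p = 0.5. Without the experiments as blocks, the smallest possible p is 0.333, and Klf6 alone reached it. Klf6 was also the 1 gene of 9 with both dDAVP values below both vehicle values, against 5.47% of all genes.

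The size of these differences followed the lists. The median log2 ratio of the 9 genes was -0.0026 in experiment 1 and -0.51 in experiment 2, against -0.027 and -0.58 over all protein-coding genes. The mean over both experiments had a median of -0.28 for the 9 genes and -0.32 for all genes. Klf15 had log2 ratios of -0.60 in experiment 1 and -1.30 in experiment 2 (mean -0.95 ± 0.50, SD, n = 2 experiments). Klf5 had -0.62 and -0.29 (mean -0.46 ± 0.24). In experiment 1 both genes, and Klf9 with -0.21, lay below the lower quartile of all genes, -0.19. In experiment 2 Klf15 alone lay below it, -0.93. Klf2 was nearest to no difference, with -0.0026 and -0.11 (mean -0.057 ± 0.077). For Klf7, with 0.066 and -0.91, the SD of 0.69 exceeded the size of the mean, -0.42.

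Set against the whole list, where each gene's ratio is divided by that of all covered bases, the picture changed. Klf15 was then the only 1 of the 9 that was lower with dDAVP in both experiments, by -0.53 and -0.54 on the log2 scale, while 19.3% of all protein-coding genes were. Klf5 had -0.55 and 0.47, with opposite signs in the 2 experiments. Klf6 had -0.058 and 0.068, slightly below its list in experiment 1 and slightly above it in experiment 2. The median of the 9 genes was 0.14 on this scale, with the sign turned round, against 0.10 over all protein-coding genes.

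**Figure D3:**
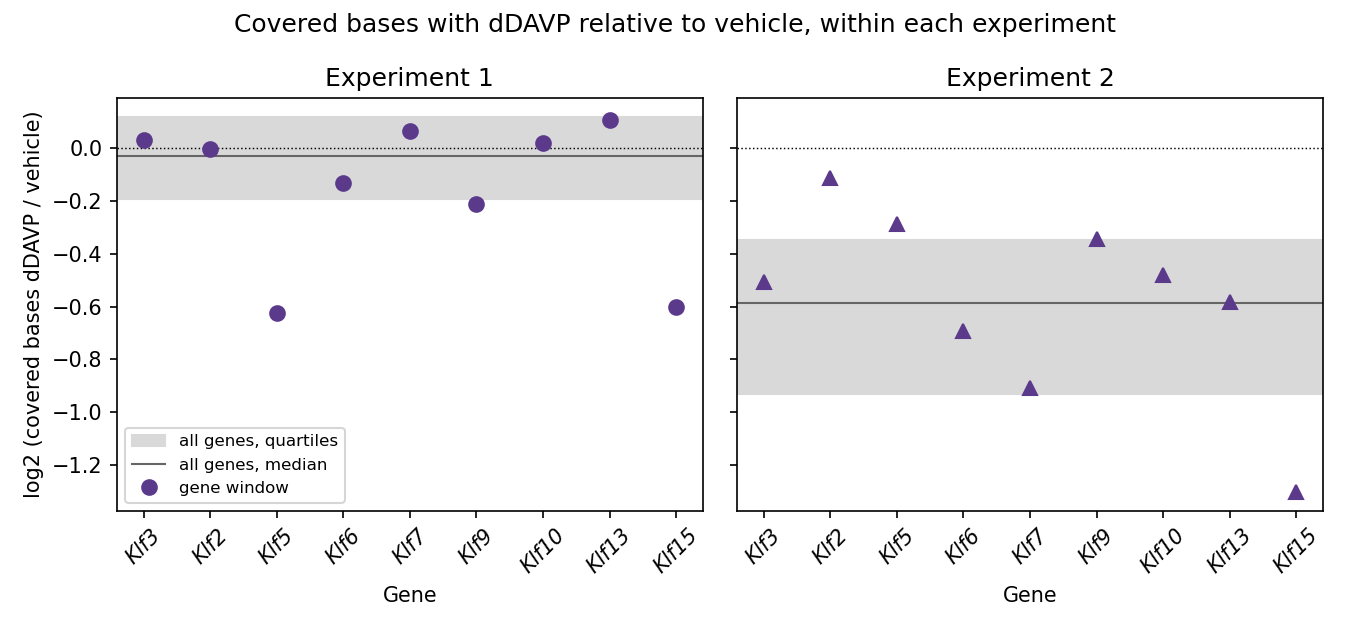
Log2 ratio of covered bases, dDAVP over vehicle (vertical axis), for the 9 genes with covered bases in all 4 lists (horizontal axis), with experiment 1 on the left and experiment 2 on the right. The grey band spans the quartiles of all protein-coding genes (-0.19 to 0.12 in experiment 1, -0.93 to -0.35 in experiment 2) and the line is their median, and Klf15 lies below the band in both.

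The covered bases were next split into the region at the start and the rest of the window, for the 8 genes with the start called in all 4 lists. This split was chosen after the data had been seen. For Klf10, whose start site was not in the tables used, the regions of 3064 and 7930 bp at both gene ends counted as the start. In experiment 2, the start region kept a larger share with dDAVP than the rest of the window did in 7 of 8 genes, all but Klf2, against 70.9% of all genes with both values. The median ratio of dDAVP to vehicle was 0.921 at the starts and 0.580 in the rest. In experiment 1, 5 of 8 genes showed this order (53.1% of all genes), with medians of 1.05 at the starts and 0.864 in the rest. Both counts lie near their backgrounds. The 8 starts had been taken as called in every list, so their ratios could not be 0, a condition not set for the rest. The Klf7 start had a ratio of 1.12 in experiment 1 and 0.980 in experiment 2, while the rest of its window had 1.02 and 0.0564. Outside their starts, Klf9 and Klf10 had no base covered in the dDAVP list of experiment 2, where the vehicle list had 665 bp for Klf9 and 1441 bp for Klf10. The Klf6 start had the lowest ratio of the 8 in experiment 2, 0.664, and the rest of its window had 0.590.

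**Figure D4:**
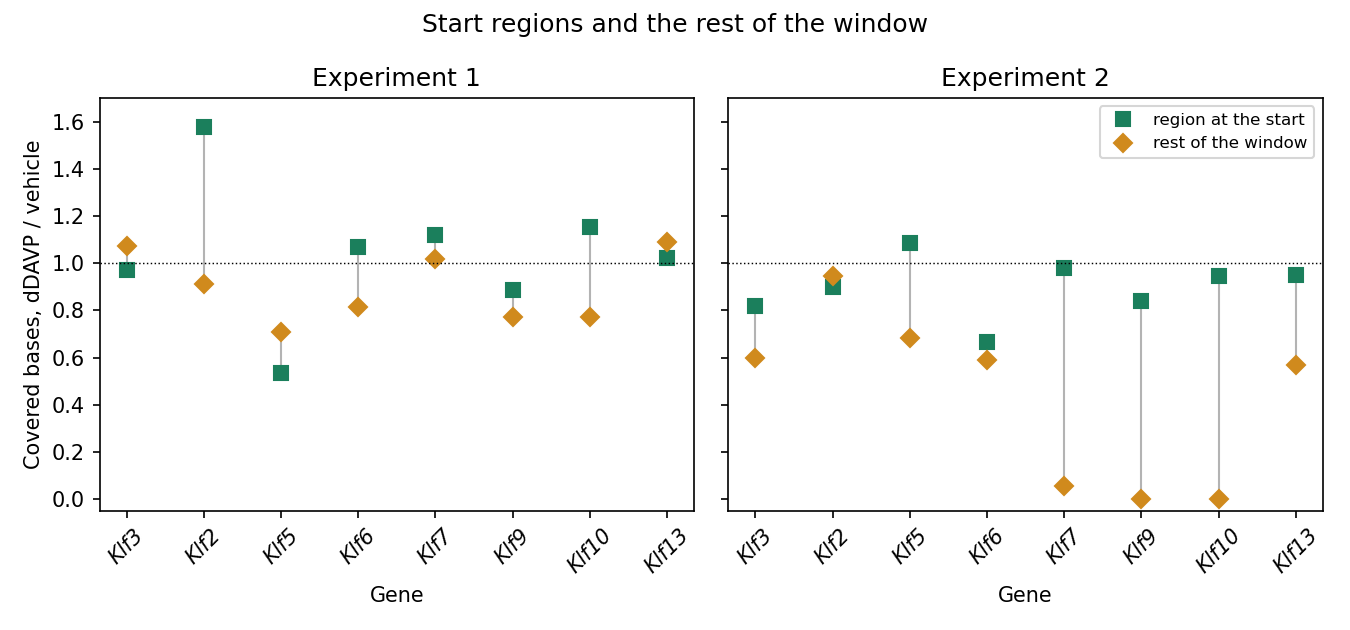
Ratio of covered bases, dDAVP over vehicle (vertical axis), in the region at the start (squares) and in the rest of the window (diamonds) for 8 genes (horizontal axis), with experiment 1 on the left and experiment 2 on the right. In experiment 2 the starts lie between 0.664 and 1.08 and the rest falls to 0 for Klf9 and Klf10. The start of Klf10 joins the regions at both gene ends.

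Over the 75 regions of the 10 windows, 57 were called in the dDAVP list and 64 in the vehicle list of experiment 1, and 21 in the dDAVP list and 32 in the vehicle list of experiment 2. All 21 regions called in the dDAVP list of experiment 2 were called in every other list too, which is 28.0% of the regions, against 36.2% of all union regions. Of these 21, 8 lay at a start, 3 in a gene body and 10 in intergenic sequence. Their median width was 6383 bp, and that of the 24 regions called in 1 list (32.0%, against 31.2% of all union regions) was 520 bp. A further 20 regions were called in both lists of experiment 1 and in neither of experiment 2. The shares of all union regions with this pattern, or with a call in each single list, were not computed. The regions called in exactly 2 lists, these 20 among them, numbered 24 of 75 (32.0%), against 19.2% of all union regions.

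Regions called in both dDAVP lists and in no vehicle list numbered 0 of 75, against 0.0635% of all union regions. Regions called in both vehicle lists and in no dDAVP list numbered 3 of 75 (4.0%), against 2.51% of all. The first lay 21.2 kb downstream of Klf6 (chromosome 13, 5891591 to 5893642), with no base covered in either dDAVP list, and 892 and 2052 bp in the vehicle lists of experiments 1 and 2. Another lay 1.83 kb off the low-coordinate end of Klf10 (chromosome 15, 38288913 to 38289632), with 0 bp in both dDAVP lists and 396 and 720 bp in the vehicle lists. A separate dDAVP peak of 518 bp lay just beside that one in experiment 1 (38289741 to 38290258). The last was 488 bp wide at an end of Cfap100, within the window of Klf15 (chromosome 6, 90428633 to 90429120), with 0 bp in both dDAVP lists and 488 and 236 bp in the vehicle lists. All 3 were weak peaks, with folds between 2.38 and 3.54 in the vehicle lists. None of the 3 kept this status when lists were limited to equal length or equal covered bases, or when a fold of at least 5 was required. Stricter limits gave other regions this status instead. A fold of at least 5 gave 2 of 15 regions (13.3%, against 4.54% of all regions under that limit), namely parts of the Klf13 gene body region and the region 14.3 kb upstream of Klf6. A −log10 q of at least 5 gave 3 of 21 (14.3%, against 3.93% of all), 1 in the gene body of Klf7 and 2 downstream of Klf3. The full lists called all 5 of these regions with both treatments in both experiments.

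Among the other Klf and Sp genes, 9 of 16 had the start called in all 4 lists (45.9% of all protein-coding genes), including Klf1, Klf11, Klf16, Sp1 and Sp3. The starts of Klf12, Klf14, Klf17, Sp5, Sp7 and Sp9 were called in 0 lists, and that of Klf8 only in the dDAVP list of experiment 1. For Klf14 and Sp7, both gene ends stood in for a start site. Of the 11 with covered bases in all 4 lists, 6 had fewer with dDAVP in both experiments and 0 had more (54.5% and 1.56% of all genes), with a median log2 ratio of -0.26, against -0.32 over all genes. Klf11, which recruits Sin3 as Klf9, Klf10 and Klf13 do, had 33480 bp covered with dDAVP and 37884 bp with vehicle in experiment 1, and 5312 bp with dDAVP and 10159 bp with vehicle in experiment 2.

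Of 10 genes for Klf cofactors, 9 had a start called in all 4 lists (45.9% of all genes), among them Sin3a, Hdac1, Ep300 and Crebbp. The given start of Ctbp2, which encodes a corepressor bound by Klf3, was called in 0 lists, although its window had 47267 bp covered with dDAVP and 54432 bp with vehicle in experiment 1, and 13723 bp with dDAVP and 21104 bp with vehicle in experiment 2. Only 1 start per gene was in the table used, so an alternative start would be missed. Fewer covered bases with dDAVP in both experiments were found for 7 of the 10 cofactor genes and more for 0, against 54.5% and 1.56% of all genes (median log2 ratio -0.40, against -0.32 over all genes). For genes that act upstream of Klf factors or on their turnover, 13 of 16 starts were called in all 4 lists, and 11 of the 15 with covered bases in all lists had fewer with dDAVP in both experiments. Over all genes these shares were 45.9% and 54.5%, and the median log2 ratio was -0.36 for this list, against -0.32 over all genes. For Nr3c1, the glucocorticoid receptor gene, no start site was in the table used, and its gene ends were called in 0 lists. Its window had 18166 bp covered with dDAVP and 22189 bp with vehicle in experiment 1, and 3809 bp with dDAVP and 7436 bp with vehicle in experiment 2.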

How the data were processed

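H3K27ac ChIP-seq peaks were used from 4 lists. Per the file headers, MACS 2.1.1.20160309 (broad mode) compared each immunoprecipitated library with its matched input (q-value limit 0.01 for strong and 0.1 for broad regions, at most 1 tag per position, 50 bp tags, the larger library scaled to the smaller). Reads were handled with BWA and SAMtools on mm10, per the submitters' processing notes. The deposited columns hold the peak length, the pileup (signal), the fold over local background (a ratio) and, under lost headers, values read here as −log10 p-value and −log10 q-value. The lists are attached to the input records, while their headers name the immunoprecipitated libraries, and within the experiment 2 lists the peaks are named with another number. Read counts were not used here, and covered bases depend on the caller's threshold.

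Peaks on the 19 autosomes, X and Y were joined across lists where they overlapped or touched, and 1 bp of overlap sufficed for a list to call the resulting region. Gene spans and start sites came from RefSeq tables of GRCm38.p6, which give 17492 protein-coding genes a start site. For the others, Klf5 and Klf10 among them, both gene ends were used. Titles give the experiment number, which pairs dDAVP with vehicle, and ratios were taken within experiments with no pseudocount. In 8 of 9 genes both lists of experiment 2 lay below both of experiment 1. The whole lists had the same order, with 33.55 Mb (dDAVP) and 56.88 Mb (vehicle) covered in experiment 2, and 98.97 Mb and 104.1 Mb in experiment 1. The share of all genes with this order was not computed. The members and gene lists were chosen with earlier results of these data known. Named genes are the members, their neighbours and the genes of the lists. The named regions are the widest, those at starts, those called with 1 treatment only, and others called in all 4 lists, which were added after their values were seen. Scripts were tested on simulated data (Python 3.11.15, NumPy 2.4.6, pandas 2.3.3).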

Additional observations from a re-analysis of the deposited data

How the results depend on the processing

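The count of 5 genes with fewer covered bases with dDAVP in both experiments fell to 1 as a share of each list's bases, to 1 with lists of equal covered bases (an alternative chosen after seeing the data; 6 genes then had covered bases in all 4 lists) and to 2 with windows of 10 kb (8 genes). It was 9 with no replicate block, where group means were compared, and between 5 and 9 when 1 library was left out and the remaining experiment was used alone. The 5 came from experiment 1 alone (55.2% of all genes) and the 9 from experiment 2 alone (97.7%). As a share of each list's bases, 19.3% of all genes had fewer in both experiments. For equal covered bases, windows of 10 kb and no replicate block, no share over all genes was computed. The median log2 ratio of -0.28 turned to 0.14 as a share of each list's bases, and was -0.19 with no replicate block and between -0.51 and -0.0026 with 1 library left out. Experiment 1 alone gave the upper of these values and experiment 2 alone the lower. Regions called only with dDAVP numbered 1 of 36 at equal list length (2.78%, against 0.858% of all regions at that setting). This was the region 15.04 kb upstream of Klf2, which the full lists called with both treatments in both experiments. With 1 library left out, such regions numbered between 0 and 9, the 9 arising without dDAVP replicate 2 (12.0% of the regions, and 12.0% of all union regions). Regions called only with vehicle numbered 0 at equal length (1.53% of all regions at that setting), at equal length within experiments (0.653%) and at equal covered bases (0.0%). They numbered 1 at 50% overlap (1.33%, against 3.2% of all regions) and 1 with windows of 10 kb (2.22%, against 2.51%). With 1 library left out they numbered between 3 and 17 (9 without dDAVP replicate 1, 13.0% against 17.0% of all union regions, and 17 without vehicle replicate 2, 23.0% against 18.7%). Of 120 single-gene alternatives, 101 stayed within the spread between experiments. Those with 1 library left out were bound to do so, since each gives the ratio of the remaining experiment. Leaving out either library of an experiment also gives the same value, so the 101 are no measure of robustness. The 120 leave out settings that gave a gene no ratio. These were a fold of at least 5 (Klf2 and Klf15), windows of 10 kb (Klf15) and equal covered bases (Klf2, Klf13 and Klf15). The mean log2 ratio turned positive in 24 of the 120, in 7 genes, all but Klf5 and Klf15. Among genes lower in both experiments, it was 0.25, 1.15, 0.59 and 0.36 for Klf2 (at a −log10 q of at least 5, at equal length, at equal length within experiments and as a share of the list), and 0.0050 for Klf6 and 0.14 for Klf9 (as a share). Among the genes with opposite signs in the experiments, it turned 4 times for Klf3 (up to 0.18), 4 for Klf7 (up to 0.10), 7 for Klf10 (up to 0.21) and 3 for Klf13 (up to 0.18), including in each the 2 settings that leave experiment 1 alone. Apart from the scaling and the left-out lists themselves, the cause was not tested. With 2 experiments, differences below the gap between list lengths could not be resolved.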
